A study of Mus musculus with 6 samples.

Results

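The peroxiredoxin and thioredoxin systems were examined in mouse Lin−CD117+ HSCs through 10 genes, taken from the expression table by their symbols. They were the peroxiredoxin genes *Prdx1* to *Prdx6*, the thioredoxin genes *Txn1* and *Txn2* and the thioredoxin reductase genes *Txnrd1* and *Txnrd2*. All 10 were found among the 18121 genes of the table, and all 10 passed the filter for testing, a mean FPKM of 1 or more, as did 10912 genes in all. FPKM counts sequenced fragments relative to transcript length and library size, so levels of different genes can be set side by side per length.

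The cells came from the marrow of femurs and tibias of female C57BL/6 mice aged 8 weeks. Lineage-positive cells were depleted and cells with CD117, the *Kit* receptor, were then retained. The Ctrl group (3 libraries) was kept in normal culture, and the GA group (3 libraries) was treated for 24 h with glycyrrhizic acid (GA), the licorice saponin that the study tests for effects on blood cell differentiation. No allele or other agent separated the groups, the GA concentration of this experiment was not given in the sources used here, and no source said whether different animals or cultures gave the libraries of a group. The p-values therefore refer to the spread among these libraries, which may be technical. As these are bulk samples, fewer cells of a type and less RNA per cell cannot be told apart.

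Peroxiredoxins are thiol peroxidases: a cysteine of the enzyme is oxidised by hydrogen peroxide or an organic peroxide and is then reduced again. For most of the family the electrons come from thioredoxin, a small protein with a pair of active-site cysteines, and thioredoxin in turn is reduced by thioredoxin reductase, a selenoenzyme that uses NADPH. The cytosol has its own set of these proteins (*Txn1*, *Txnrd1*) and mitochondria have another (*Txn2*, *Txnrd2*). Blood stem cells are known to be sensitive to peroxide, and red cells carry large amounts of the PRDX2 protein.

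The library sums were 508672 to 511802 FPKM in Ctrl and 515444 to 555449 FPKM in GA, and steps among low values placed the depth of the libraries at 0.990 to 1.03 times their median. GA replicate 1 stood apart, at 14.97 on the first principal component (39.6% of the variance) against -5.82 to 0.25 for the other 5 libraries. It also favoured short transcripts. Spearman's rho of transcript length with each library's deviation from the mean of Ctrl, taken across genes, which are not independent replicates, was -0.59 for GA replicate 1, -0.31 for GA replicate 2, -0.18 for GA replicate 3 and -0.059 to 0.066 for Ctrl libraries. Length and treatment cannot be told apart here, because all GA libraries lean the same way. Over all 10912 genes limma called 0 genes at an adjusted p under 0.05 in either direction (0.0%), and 1474 genes (13.5%) lay at an unadjusted p under 0.05. The marker *Kit* was at 16.0 to 21.2 FPKM and *Cd34* at 40.1 to 44.3 FPKM, while the platelet chemokine gene *Pf4* was at 11829 to 17513 FPKM and the B cell gene *Cd79a* at 0.41 to 0.84 FPKM, so a megakaryocyte gene far exceeded the stem cell markers in libraries labelled as stem cells.

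The genes of the peroxiredoxin and thioredoxin systems had slightly higher values in GA, led by *Txn1* and *Prdx1*, but none passed the test over all genes. The mean over 3 libraries was higher in GA for 10 of 10 members as deposited, and for 7 of 10 when each library was rescaled to a common total or when the length trend was removed. Of all tested genes 54.8% were higher in GA as deposited, 33.4% after rescaling and 58.7% with the length trend removed. The median log2 fold change (GA minus Ctrl, on log2(FPKM + 1)) was 0.088 for the members and 0.012 for all tested genes. No member was called by limma at a Benjamini-Hochberg adjusted p under 0.05, and 3 of 10 (*Prdx1*, *Prdx2* and *Txn1*) lay at an unadjusted p under 0.05, all higher in GA. Over all tested genes the share at that p was 8.88% higher and 4.63% lower. The same 3 were the members whose GA libraries all lay above every Ctrl library, against 11.6% of all tested genes, and 0 members lay wholly below, against 8.29% (19.9% in either direction). Without GA replicate 1 the means of 8 of 10 members were higher in GA (64.8% of all tested genes), the median was 0.085, and limma called 1 member, *Prdx1* as higher. In that fit 0.495% of all tested genes were called higher and 0.55% lower.

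**Figure D1:**
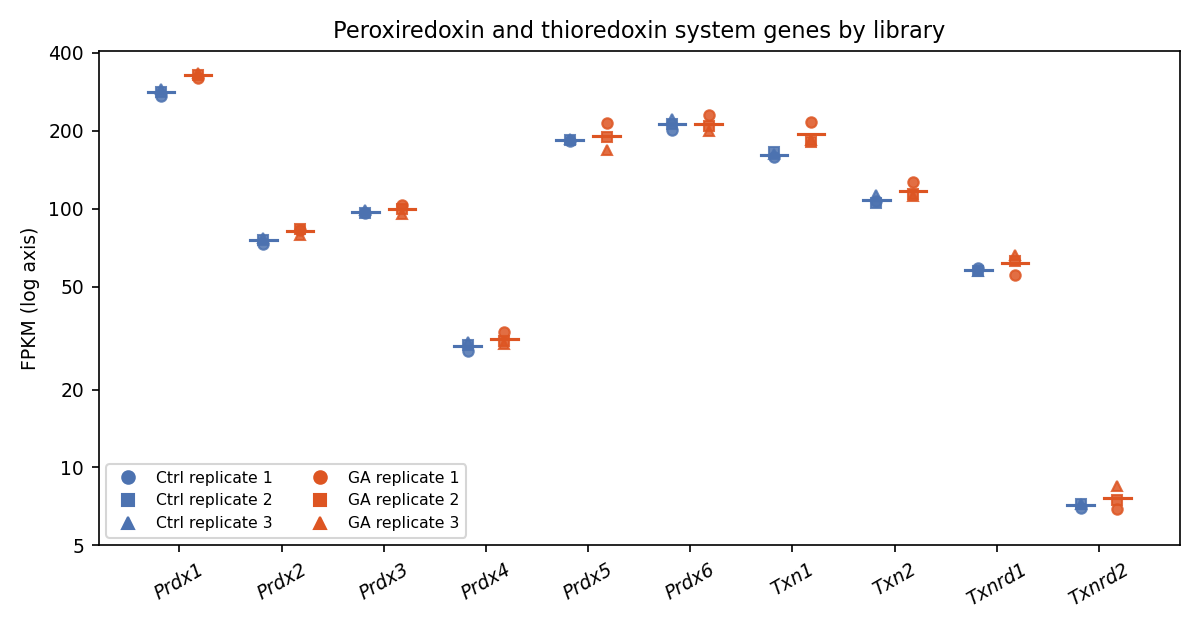
FPKM on a log axis for each of the 10 genes in the 3 Ctrl (blue) and 3 GA (orange) libraries, with a symbol for each replicate number and a bar at the group mean (n = 3). *Prdx1* was the highest gene in every library, at 273 to 336 FPKM, and *Txnrd2* the lowest, at 6.93 to 8.5 FPKM.

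The levels of the members spanned a wide range. In Ctrl the order by mean was *Prdx1*, *Prdx6*, *Prdx5*, *Txn1*, *Txn2*, *Prdx3*, *Prdx2*, *Txnrd1*, *Prdx4* and *Txnrd2*, and the 3 Ctrl libraries of each gene lay apart from those of its neighbours in the order. In GA *Txn1* (mean 194 FPKM) came before *Prdx5* (mean 191 FPKM), and the libraries of *Prdx6*, *Txn1* and *Prdx5* overlapped. Within each GA library *Prdx6* was the highest of these 3, while *Txn1* was above *Prdx5* in GA replicates 1 and 3 and below it in GA replicate 2. Summed over the 10 members the level was 1185 to 1246 FPKM in Ctrl and 1280 to 1389 FPKM in GA, or 0.233% to 0.244% and 0.248% to 0.25% of all FPKM of a library.

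*Prdx1* encodes the abundant cytosolic peroxiredoxin that thioredoxin 1 reduces, and it is a known target of the transcription factor NRF2. *Prdx1* (gene 18477, GRCm38 chromosome 4, 116685544 to 116700822, plus strand) was at 273, 282 and 291 FPKM in Ctrl replicates 1 to 3 and at 319, 329 and 336 FPKM in GA replicates 1 to 3. All GA libraries lay above all Ctrl libraries, and GA replicate 1 was the lowest of the 3. The Ctrl mean of 282 ± 9.27 FPKM (SD, n = 3) compared with a GA mean of 328 ± 8.53 FPKM (SD, n = 3), higher by 16.5%. The log2 fold change was 0.22 with a standard error of 0.046 (limma adjusted p = 0.174, 95% interval 0.12 to 0.32), while exact permutation of the libraries, two-sided, gave p = 0.1, the lowest value possible with 3 libraries a group. Without GA replicate 1 the limma call was made, at 0.24 (adjusted p = 0.032, over 17 alternatives 0.0048 to 0.529). It was also made with the length trend removed as well, at 0.23 (adjusted p = 0.036), but not with that trend removed from all 6 libraries, at 0.21 (adjusted p = 0.308).

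*Txn1* encodes thioredoxin 1, the cytosolic electron donor of peroxiredoxins. *Txn1* (gene 22166, chromosome 4, 57943373 to 57956411, minus strand) was at 158, 165 and 162 FPKM in Ctrl replicates 1 to 3 and at 217, 182 and 185 FPKM in GA replicates 1 to 3. The groups did not overlap, and GA replicate 1 lay above the other 5 libraries. The Ctrl mean of 162 ± 3.70 FPKM (SD, n = 3) compared with a GA mean of 194 ± 19.4 FPKM (SD, n = 3), higher by 20.1%, the largest difference among the members as deposited, while with the length trend removed that of *Prdx1* was larger. The log2 fold change was 0.26 with a standard error of 0.066 (limma adjusted p = 0.217, 95% interval 0.11 to 0.41) and the exact permutation p was 0.1. It was 0.18 without GA replicate 1 (adjusted p = 0.051, over 17 alternatives 0.013 to 0.578), 0.18 with the length trend removed and 0.14 with both changes.

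Promoters are shown for the members whose libraries did not overlap, *Prdx1*, *Prdx2* and *Txn1*, and for the *Txnrd1* start site that holds a match to the antioxidant response element. That element, bound by NRF2, was searched as TGACNNNGC on either strand, in the window from 250 bases before to 50 bases after each RefSeq start (GRCm38.p6). RefSeq windows were found for 9 of the 10 members, with 3 start sites for *Txnrd1*. No window was matched to *Prdx6*, so it was not searched. Capitals mark the match, and sequences without capitals hold none. The sequences run 5′ to 3′ on the strand of the gene, at chr4:116685349-116685648 (plus) for *Prdx1*, chr8:84969372-84969671 (plus) for *Prdx2*, chr4:57956362-57956661 (minus) for *Txn1* and chr10:82858956-82859255 (plus) for *Txnrd1*.
Prdx1: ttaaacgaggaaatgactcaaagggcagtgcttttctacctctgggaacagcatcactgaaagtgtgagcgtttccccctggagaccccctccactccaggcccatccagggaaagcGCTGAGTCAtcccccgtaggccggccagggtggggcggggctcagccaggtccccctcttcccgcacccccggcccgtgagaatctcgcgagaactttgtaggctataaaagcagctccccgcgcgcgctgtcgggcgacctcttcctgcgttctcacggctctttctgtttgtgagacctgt
Prdx2: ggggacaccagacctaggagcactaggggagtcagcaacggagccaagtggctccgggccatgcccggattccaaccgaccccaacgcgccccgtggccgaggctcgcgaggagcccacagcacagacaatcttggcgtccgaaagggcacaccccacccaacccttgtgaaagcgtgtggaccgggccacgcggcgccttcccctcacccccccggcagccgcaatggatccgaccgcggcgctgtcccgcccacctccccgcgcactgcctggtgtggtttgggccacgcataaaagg
Txn1: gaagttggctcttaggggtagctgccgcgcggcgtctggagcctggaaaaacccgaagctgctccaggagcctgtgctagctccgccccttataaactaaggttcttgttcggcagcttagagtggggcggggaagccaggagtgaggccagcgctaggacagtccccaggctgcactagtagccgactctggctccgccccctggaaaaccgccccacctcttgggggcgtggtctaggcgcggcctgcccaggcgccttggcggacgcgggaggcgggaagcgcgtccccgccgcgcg
Txnrd1: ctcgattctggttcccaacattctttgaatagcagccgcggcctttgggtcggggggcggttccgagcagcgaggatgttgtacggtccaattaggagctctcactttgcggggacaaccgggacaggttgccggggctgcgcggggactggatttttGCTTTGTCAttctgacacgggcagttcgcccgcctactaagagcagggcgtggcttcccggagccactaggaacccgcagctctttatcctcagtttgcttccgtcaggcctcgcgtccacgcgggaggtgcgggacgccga
The match in *Prdx1* reads GCTGAGTCA from base -133 and that in *Txnrd1* reads GCTTTGTCA from base -92, each with the element on the opposite strand. No other member's window held the element, and 12.4% of all 32851 promoter windows did. The sequence TATAAA lies in the windows of *Prdx1*, from base -29, and *Txn1*, from base -160, both on the strand of the gene. In the *Prdx3* window it lies on the opposite strand, from base -239. Of all windows 13.6% hold it on either strand. A match is a description of these letters and not evidence of binding.

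*Prdx2* encodes the peroxiredoxin that is most abundant in red cells. *Prdx2* (gene 21672, chromosome 8, 84969587 to 84974834, plus strand) was at 73.1, 76.0 and 77.4 FPKM in Ctrl and at 82.6, 83.8 and 79.3 FPKM in GA replicates 1 to 3. The GA libraries lay above all Ctrl libraries, with GA replicate 3 the nearest to them. The log2 fold change was 0.12 with a standard error of 0.044 (limma adjusted p = 0.309), the exact permutation p was 0.1, and the fold change was 0.072 with the length trend removed. The gene overlaps *Rnaseh2a* at its start and *Junb* at its end, both on the opposite strand, and as the strand setting of the counting was not given, reads from these overlaps cannot be told apart. *Junb* itself was at 184 to 186 FPKM in Ctrl and at 172 to 212 FPKM in GA, overlapping. The erythroid marker list had 3 of 6 tested genes higher in GA (2 without GA replicate 1) with sums of 1142 to 1176 FPKM in Ctrl libraries and 971 to 1444 FPKM in GA libraries. None of its genes was at 0 in all libraries, and its part in the *Prdx2* values was not tested.

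The other 4 peroxiredoxins did not separate the groups. *Prdx3* (chromosome 19, 60864051 to 60874556, minus strand), the mitochondrial peroxiredoxin, was at 96.5, 96.2 and 98.6 FPKM in Ctrl and at 103, 99.9 and 95.02 FPKM in GA replicates 1 to 3, so that GA replicate 3 was the lowest of all 6 libraries. *Prdx4* (chromosome X, 155323918 to 155340754, minus strand), which acts in the endoplasmic reticulum, was at 28.1, 29.8 and 30.5 FPKM in Ctrl and at 33.5, 31.0 and 30.01 FPKM in GA, and the groups overlapped. *Prdx5* (chromosome 19, 6906697 to 6910106, minus strand), found in mitochondria, peroxisomes and cytosol, was at 182, 185 and 186 FPKM in Ctrl and at 215, 189.9 and 168 FPKM in GA. These *Prdx5* values placed GA replicate 1 above and GA replicate 3 below all Ctrl libraries. *Prdx6* (chromosome 1, 161240112 to 161251219, minus strand), which also has phospholipase activity and draws on glutathione instead of thioredoxin, was at 202, 213 and 222 FPKM in Ctrl and at 229.9, 208 and 200.1 FPKM in GA. GA replicate 1 was the highest *Prdx6* library, and GA replicates 2 and 3 lay within or just below the range of Ctrl. The log2 fold changes were 0.033 for *Prdx3* (95% interval -0.068 to 0.13), 0.092 for *Prdx4* (-0.032 to 0.22), 0.042 for *Prdx5* (-0.13 to 0.21) and 0.00021 for *Prdx6* (-0.14 to 0.14), and those of *Prdx3*, *Prdx5* and *Prdx6* changed sign with rescaling or with the length trend removed. For *Prdx4* the fold change was 0.048 without GA replicate 1 and 0.0041 with the length trend removed. *Prdx5* shares its start region with *Trmt112* on the opposite strand, whose libraries, at 79.8 to 85.3 FPKM in Ctrl and 92.2 to 93.6 FPKM in GA, did not overlap. The close copy of *Prdx6*, *Prdx6b* (90.1% identity over 1444 bases), was at 0.03 FPKM or less in every library. Processed pseudogenes with at least 90% identity over 200 bases exist for *Prdx1* (3), *Prdx2* (2) and *Txn1* (1) and were not analysed here, so these values carry that uncertainty.

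The mitochondrial thioredoxin and the 2 reductases showed different orders among the GA libraries. *Txn2* (chromosome 15, 77915047 to 77929006, minus strand), which serves PRDX3 in mitochondria, was at 107, 105 and 113 FPKM in Ctrl and at 127, 115 and 112 FPKM in GA replicates 1 to 3. Only GA replicate 3 lay within the range of Ctrl, and the log2 fold change was 0.11 with a standard error of 0.056 (limma adjusted p = 0.415), or 0.061 without GA replicate 1. *Txnrd1* (chromosome 10, 82833951 to 82897712, plus strand), the cytosolic reductase and another known NRF2 target, was at 59.1, 57.5 and 57.5 FPKM in Ctrl and at 55.6, 62.6 and 66.5 FPKM in GA. GA replicate 1 was the lowest library and GA replicates 2 and 3 were the highest. The log2 fold change of *Txnrd1* was 0.080 with a standard error of 0.063 (limma adjusted p = 0.634). It was 0.15 (adjusted p = 0.096) without GA replicate 1 and 0.023 without GA replicate 3. *Txnrd2* (chromosome 16, 18426384 to 18479073, plus strand), the mitochondrial reductase, was at 6.96, 7.23 and 7.22 FPKM in Ctrl and at 6.93, 7.51 and 8.5 FPKM in GA, again with GA replicate 1 the lowest of all 6 libraries. Its log2 fold change was 0.084 with a standard error of 0.075 (limma adjusted p = 0.689), 0.14 without GA replicate 1 and 0.014 without GA replicate 3.

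**Figure D2:**
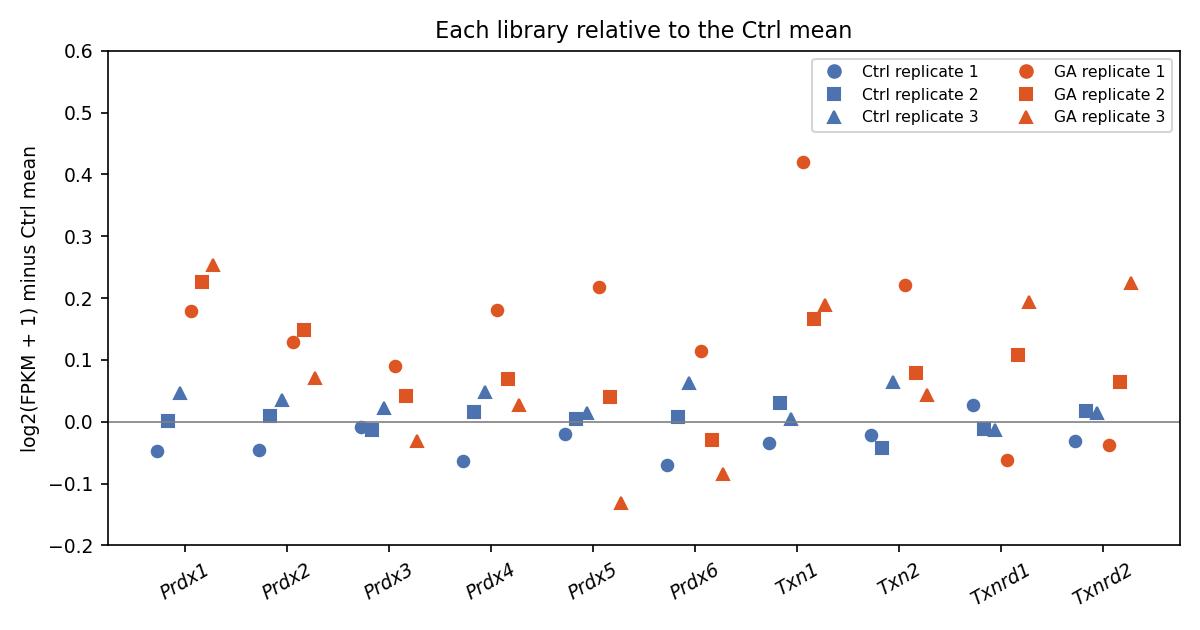
Each library's log2(FPKM + 1) minus the Ctrl mean of the same gene, for the 3 Ctrl (blue) and 3 GA (orange) libraries, with a symbol for each replicate number. GA replicate 1 (orange circles) is the highest GA library for *Prdx3*, *Prdx4*, *Prdx5*, *Prdx6*, *Txn1* and *Txn2* and the lowest for *Prdx1*, *Txnrd1* and *Txnrd2*.

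The place of GA replicate 1 among the GA libraries was ordered by transcript length in the deposited values. It was the highest of the 3 GA libraries for the 6 members with the shortest transcripts, *Prdx4* (990 nucleotides), *Txn1* (1051), *Prdx5* (1262), *Prdx6* (1294), *Txn2* (1298) and *Prdx3* (1478). It lay in the middle for *Prdx2* (1556) and was the lowest for the 3 with the longest, *Txnrd2* (1905), *Prdx1* (2294) and *Txnrd1* (3428). With the length trend removed it was still the highest of the 3 for *Txn1*, *Txn2*, *Prdx5* and *Prdx6* and still the lowest for *Prdx1*, *Txnrd1* and *Txnrd2*, while for *Prdx3* and *Prdx4* it was no longer the highest. After that removal, GA replicate 1 still lay above Ctrl for *Txn1*, by 0.25 on the log2 scale, and for *Prdx1*, by 0.17, and it lay at -0.0038 for *Prdx4* and 0.089 for *Prdx5*, which had been at 0.18 and 0.22.

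**Figure D3:**
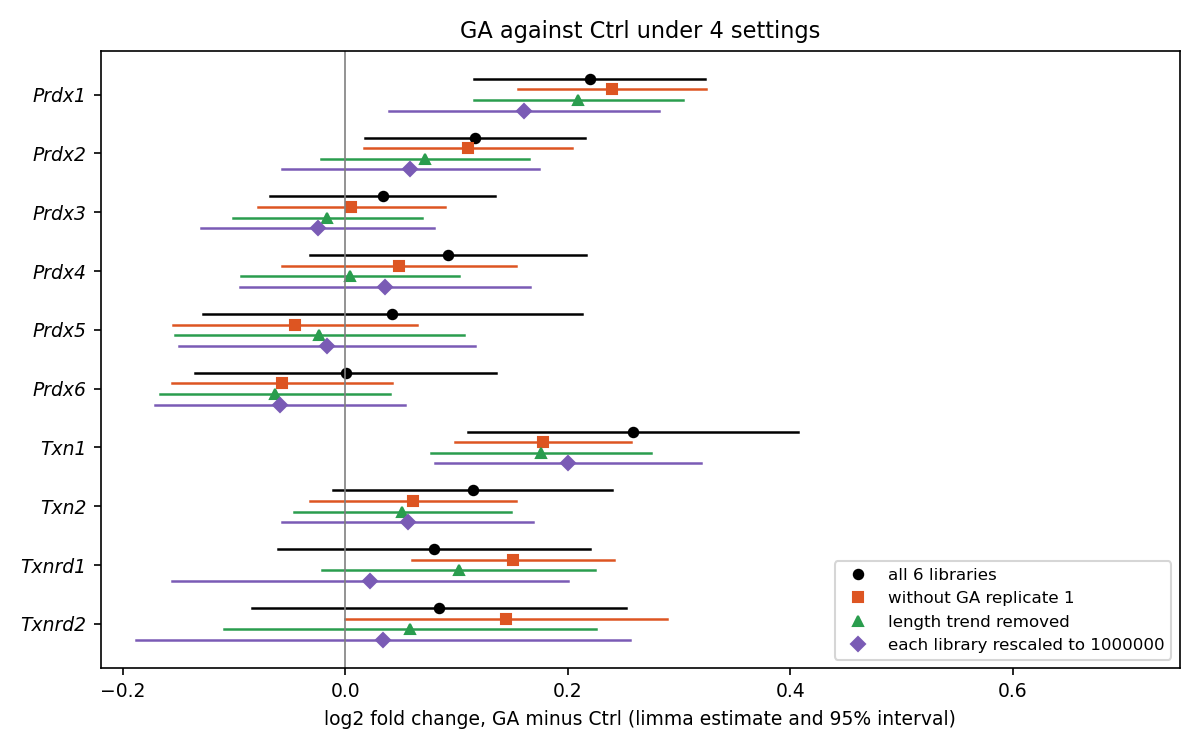
limma log2 fold change (GA minus Ctrl) with its 95% interval for each gene, fitted with all 6 libraries (black), without GA replicate 1 (orange), with the length trend removed (green) and with each library rescaled to 1000000 (purple). The intervals of *Prdx1* and *Txn1* lie above 0 in all 4 fits, while *Prdx3*, *Prdx5* and *Prdx6* lie on either side of 0 depending on the fit. These intervals are not adjusted over genes. At a limma adjusted p under 0.05 only *Prdx1* was called, and only in the fit without GA replicate 1.

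Shares and ratios within a library do not depend on how that library was scaled. They can still carry the lean of the GA libraries to short transcripts, which was not removed from them. *Prdx1* made up 31.9%, 31.9% and 32.1% of the summed peroxiredoxin FPKM in Ctrl and 32.5%, 35.0% and 37.0% in GA replicates 1 to 3. Every GA library was above Ctrl, and GA replicate 1 was above the highest Ctrl library only slightly. The share of *Prdx6* was 23.7%, 24.2% and 24.5% in Ctrl and 23.4%, 22.1% and 22.01% in GA. That of *Prdx3* was 11.3%, 10.9% and 10.9% in Ctrl and 10.5%, 10.6% and 10.5% in GA, and for both of these genes every GA library was below Ctrl. The shares of *Prdx2*, *Prdx4* and *Prdx5* overlapped between the groups. The exact permutation p was 0.1 for *Prdx1*, *Prdx3* and *Prdx6*, two-sided and the smallest possible (0.225 after Benjamini-Hochberg adjustment over 9 shares and ratios). Because the shares of a library add up to a fixed total, a higher *Prdx1* share lowers the others, so these 3 differences are not separate results. The FPKM values of *Prdx3* and of *Prdx6* overlapped between the groups, with log2 fold changes of 0.033 and 0.00021.

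*Txnip* encodes the thioredoxin-interacting protein, which binds reduced thioredoxin and inhibits it. *Txnip* was at 119, 129 and 121 FPKM in Ctrl and at 124, 113 and 98.5 FPKM in GA replicates 1 to 3. The groups overlapped, and the log2 fold change was -0.14 with a standard error of 0.076 (limma adjusted p = 0.461). It was -0.21 without GA replicate 1 and -0.052 without GA replicate 3. The ratio of *Txnip* to *Txn1* was 0.751, 0.779 and 0.744 in Ctrl and 0.570, 0.623 and 0.534 in GA replicates 1 to 3. All 3 GA libraries were below all Ctrl libraries, with means of 0.758 ± 0.018 and 0.575 ± 0.045 (SD, n = 3) and an exact permutation p of 0.1 (0.225 adjusted). Without GA replicate 1 the difference in this ratio was -0.18, as with all libraries, and the exact p was 0.2, the smallest that 3 against 2 allow. The ratio of *Txnrd1* to *Txn1* was 0.374, 0.348 and 0.354 in Ctrl and 0.256, 0.344 and 0.360 in GA, and that of *Txnrd2* to *Txn2* was 0.064 to 0.069 in Ctrl and 0.055 to 0.076 in GA. These reductase ratios overlapped between the groups, and GA replicate 1 had the lowest value of each.

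**Figure D4:**
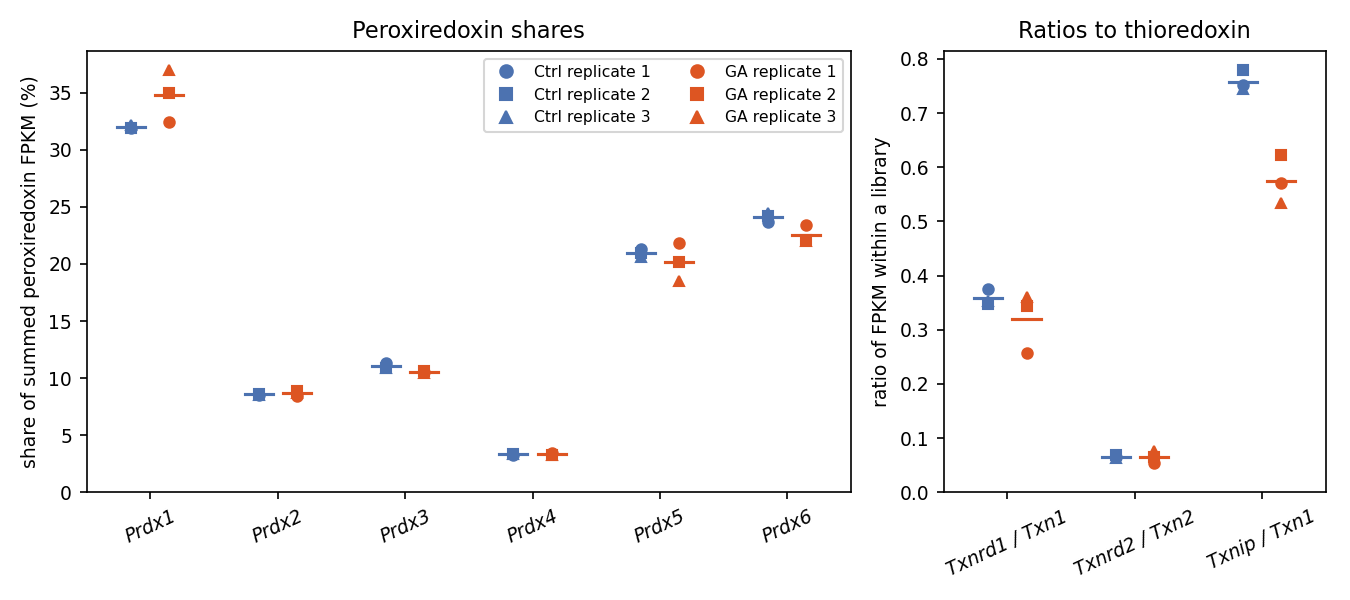
Left, the share of each peroxiredoxin in the summed peroxiredoxin FPKM of a library (percent), and right, the ratio of *Txnrd1* to *Txn1*, *Txnrd2* to *Txn2* and *Txnip* to *Txn1* within a library, for 3 Ctrl (blue) and 3 GA (orange) libraries with bars at the group means. The *Prdx1* share was 31.9% to 32.1% in Ctrl and 32.5% to 37.0% in GA, and the *Txnip* to *Txn1* ratio was 0.744 to 0.779 and 0.534 to 0.623.

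Other genes that act with these systems were taken from lists by function, which were chosen with earlier results of these data known. At an adjusted p under 0.05 limma called 0 genes of any of these lists. Of all tested genes 13.5% lay at an unadjusted p under 0.05. Of 14 tested partners and inhibitors of thioredoxin, 11 were higher and 3 lower in GA (3 at an unadjusted p under 0.05), and the median log2 fold change was 0.068 (8 higher after rescaling). The glutaredoxin genes *Glrx* (31.2 to 32.1 FPKM in Ctrl, 33.6 to 35.7 FPKM in GA) and *Glrx3* (29.1 to 30.6 and 30.9 to 32.5 FPKM) did not overlap between the groups, and both reduce disulfides or carry iron-sulfur clusters with glutathione. *Srxn1*, the sulfiredoxin that repairs overoxidised peroxiredoxins, overlapped at 208 to 214 FPKM in Ctrl and 208 to 217 FPKM in GA. So did *Gsr*, glutathione reductase, at 52.4 to 54.1 and 49.2 to 56.2 FPKM. The 3 sestrin genes, stress-induced regulators of nutrient signalling, had a median of 0.012, with 2 higher and 1 lower (1 and 2 after rescaling, 0 at an unadjusted p under 0.05). Of these, *Sesn1* was at 16.3 to 18.1 FPKM in Ctrl and 15.3 to 17.9 FPKM in GA, and *Sesn2* was at 13.3 to 14.1 and 13.6 to 14.03 FPKM.

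The proteins that thioredoxin reduces or binds gave the highest median among the 8 related lists, markers aside. Of 8 tested clients 7 were higher and 1 lower in GA, with a median log2 fold change of 0.14. That median was 0.16 without GA replicate 1, 0.085 after rescaling (6 higher) and 0.086 with the length trend removed. At an unadjusted p under 0.05 lay 5 of the 8, against 13.5% of all tested genes. *Rrm1* and *Rrm2* encode the subunits of ribonucleotide reductase, which makes the building blocks of DNA. *Rrm1* was at 52.9, 52.5 and 52.2 FPKM in Ctrl and at 54.8, 58.5 and 59.5 FPKM in GA replicates 1 to 3. *Rrm2* was at 34.9, 36.0 and 36.6 FPKM in Ctrl and at 38.9, 39.5 and 44.1 FPKM in GA. Every GA library was above Ctrl for both genes, with log2 fold changes of 0.13 and 0.18 (limma adjusted p = 0.278 and 0.249). *Msrb1*, a methionine sulfoxide reductase, was at 86.4 to 97.5 FPKM in Ctrl and 99.0 to 106 FPKM in GA, also without overlap. *Map3k5*, the kinase that reduced thioredoxin holds inactive, overlapped at 6.41 to 6.59 and 5.62 to 7.19 FPKM.

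Of 7 tested genes for other peroxide and superoxide enzymes, 5 were higher and 2 lower in GA (4 and 3 after rescaling), with a median log2 fold change of 0.13 (0.073 without GA replicate 1) and 3 at an unadjusted p under 0.05. *Gpx1*, the cytosolic glutathione peroxidase, was at 371, 354 and 375 FPKM in Ctrl and at 453, 429.9 and 400.3 FPKM in GA replicates 1 to 3. *Sod1*, the copper-zinc superoxide dismutase, was at 480.4, 488 and 490.04 FPKM in Ctrl and at 587, 541 and 528 FPKM in GA, and *Sod2*, the mitochondrial form, was at 22.04 to 22.9 and 23.6 to 25.6 FPKM. For these 3 genes every GA library was above Ctrl, with log2 fold changes of 0.22, 0.18 and 0.13 (limma adjusted p = 0.217, 0.239 and 0.302), and for *Gpx1* and *Sod1* GA replicate 1 was the highest library. With the length trend removed the fold change of *Sod1* was 0.055, that of *Gpx1* 0.14 and that of *Sod2* 0.19, and the median of the list was 0.055. *Cat* (catalase) was at 122 to 132 FPKM in Ctrl and 127 to 139 FPKM in GA, and *Gpx4*, the lipid peroxide reductase, at 984 to 1106 and 942 to 1099 FPKM, and these 2 overlapped.

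With all 6 libraries the medians of 3 lists, for selenoprotein synthesis, oxidative folding and NADPH supply, lay nearer to 0 than that of the members (0.088). Of 6 selenoprotein synthesis genes 4 were higher and 2 lower (median 0.026, with 1 and 5 after rescaling), and *Secisbp2*, which binds selenocysteine insertion elements, was at 11.1 to 11.9 FPKM in Ctrl and 10.1 to 12.3 FPKM in GA. *Sephs2*, which makes the selenium donor, was at 48.3 to 49.7 and 43.4 to 49.8 FPKM. Of 9 genes for oxidative folding in the endoplasmic reticulum, where PRDX4 works, 5 were higher and 4 lower (median 0.0037, with 2 and 7 after rescaling). The oxidase gene *Ero1a* was at 20.1 to 21.5 FPKM in Ctrl and 19.0 to 21.8 FPKM in GA, and *P4hb*, protein disulfide isomerase, at 203 to 209.9 and 196 to 215 FPKM. Of 8 genes for NADPH supply 6 were higher and 2 lower (median 0.053, with 4 and 4 after rescaling). Without GA replicate 1, 7 of these 8 were higher (64.8% of all tested genes), and their median was 0.087, against 0.085 for the members. *G6pdx*, the first enzyme of the pentose phosphate pathway, was at 138 to 148 FPKM in Ctrl and 145 to 153 FPKM in GA, and *Pgd*, which makes NADPH later in that pathway, at 138 to 146 and 144 to 162 FPKM. With all libraries 0 genes of these 3 lists lay at an unadjusted p under 0.05.

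Regulators of antioxidant transcription had the lowest median among the 8 related lists. All 7 tested genes were lower in GA as deposited, after rescaling and with the length trend removed. After rescaling only 33.4% of all tested genes were higher, so lower values were common there. Without GA replicate 1, 6 of these 7 were lower, and with the length trend removed as well, 5 were. With all libraries 2 of the 7 lay at an unadjusted p under 0.05, and the median log2 fold change was -0.061. *Nfe2l2*, which encodes NRF2, was at 212, 213 and 213 FPKM in Ctrl and at 229, 208 and 199 FPKM in GA replicates 1 to 3, on either side of Ctrl. *Keap1*, its inhibitor, was at 26.0 to 26.9 FPKM in Ctrl and 23.6 to 28.4 FPKM in GA. The 2 genes at an unadjusted p under 0.05, named after their values were seen, were *Bach1*, a repressor of NRF2 targets, at 28.0 to 28.7 and 24.4 to 26.6 FPKM, and *Foxo3*, a transcription factor of stem cell stress resistance, at 33.4 to 34.2 and 26.7 to 31.4 FPKM. Both lay below Ctrl in every GA library, with limma adjusted p = 0.288 and 0.239.

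**Figure D5:**
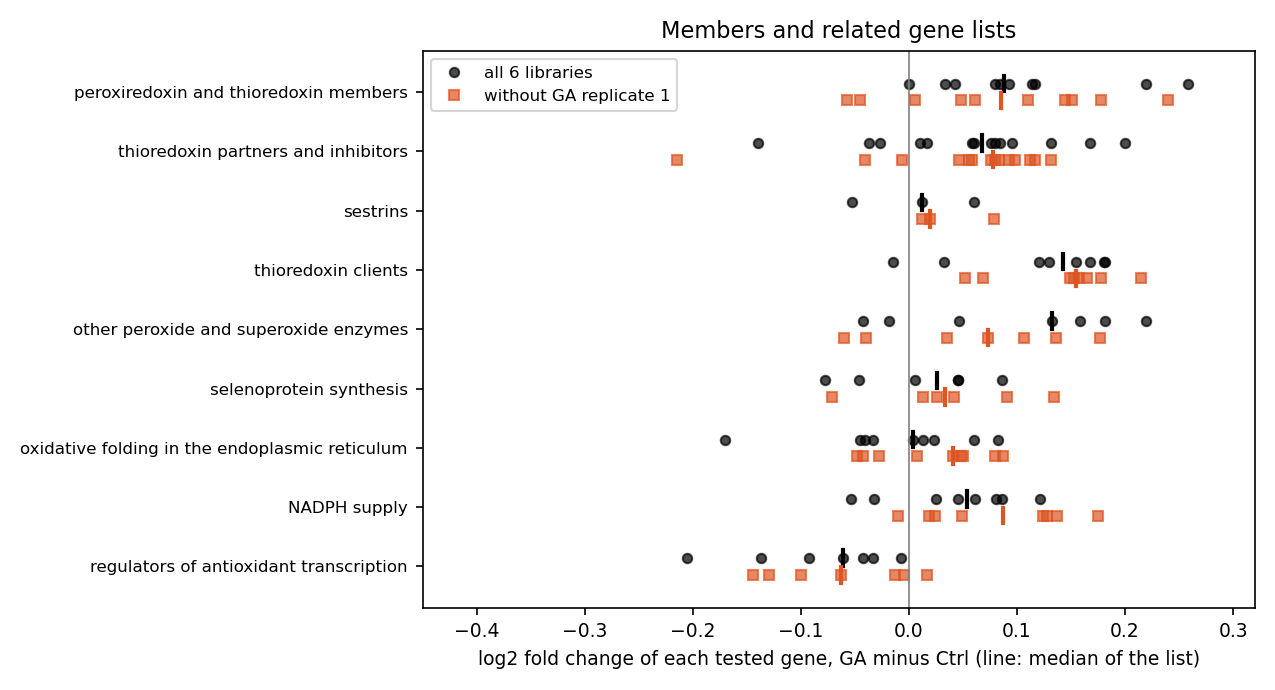
log2 fold change (GA minus Ctrl) of each tested gene in the 10 members and in 8 related gene lists, with all 6 libraries (black circles) and without GA replicate 1 (orange squares), and a line at the median of each list. Among these lists thioredoxin clients had the highest median (0.14 with all libraries) and regulators of antioxidant transcription the lowest (-0.061), and no gene was called with all 6 libraries.

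Markers of other cell types were measured in the same libraries, and limma called 0 of them with all 6 libraries. All 8 neutrophil and granulocyte progenitor markers were higher in GA, also after rescaling and with the length trend removed, summing to 1495 to 1687 FPKM in Ctrl and 1844 to 1945 FPKM in GA (2 called higher without GA replicate 1), with *S100a8* at 243 to 274 and 325 to 388 FPKM and *Mpo* at 185 to 223 and 206 to 237 FPKM. Of 8 megakaryocyte and platelet markers 3 were higher and 5 lower (0 higher without GA replicate 1, where limma called 3 lower), summing to 20317 to 20957 FPKM in Ctrl and 18440 to 25658 FPKM in GA. *Itga2b*, the platelet integrin gene, was at 1056 to 1075 and 917 to 966 FPKM. *Pf4* overlapped, at 13012 to 13592 FPKM in Ctrl and 11829 to 17513 FPKM in GA. Of 6 tested mast cell and basophil markers 4 were higher, summing to 279.7 to 285 and 289 to 303 FPKM (3 called higher without GA replicate 1). Of 8 monocyte and macrophage markers 3 were higher (6 without GA replicate 1), summing to 1007 to 1162 and 1122 to 1229.7 FPKM. No gene of these lists was at 0 in all libraries, and the part of these cells in the values of the 10 members was not tested.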

How the data were processed

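Libraries of 6 samples (3 Ctrl, 3 GA, grouped by their titles) were sequenced on a BGISEQ-500 instrument. The authors removed low-quality reads. HISAT2 2.0.4, Bowtie2 2.2.5 and mm10 are named in the submitters' processing notes, and the study's methods add RSEM. The deposited values are FPKM, which the authors calculated, and 2 further columns hold the authors' group means and were not used. The sources used here give no annotation, strand or read length. FPKM fixes a library's total before the length division, so abundant or short transcripts shift other genes.

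The main test was limma 3.58.1 (R 4.3.3) with a mean-variance trend, two-sided, on log2(FPKM + 1) for the 10912 genes whose mean was 1 FPKM or more, with Benjamini-Hochberg adjustment over all of them and calls under 0.05. Fold changes on this scale understate those of low genes. Shares, ratios and single genes were tested by exact permutation over libraries (scipy 1.17.1). The fit was also run on data simulated with the mean and spread of Ctrl in every library. Such data hold no outlying library, so that run does not cover one like GA replicate 1. Low values lay within 0.15 of a whole fragment in 60.0% to 63.7% of 480 to 511 values per library, which is too few to recover whole reads for a count test. Lengths and positions came from GENCODE M21 (GRCm38, which mm10 names), with a length for 98.2% of tested genes, and near-identical copies were searched with BLAST 2.17.0. The length trend was removed from each library by loess (span 0.5), keeping the library mean. Related lists, other settings and each left-out library were tried as alternatives. The members and lists were chosen with earlier results of these data known, and the named genes are the 10 members and preset genes of each list, whatever their values, besides overlapping genes or close copies of members and *Bach1* and *Foxo3*, which were chosen after their values were seen. *Cd3e*, a preset marker, was not analysed here.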

Additional observations from a re-analysis of the deposited data

How the results depend on the processing

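Across 17 alternatives, 151 of 170 values of the 10 members kept their direction and their side of the threshold. Calls at a limma adjusted p under 0.05 depended on GA replicate 1 and on scaling. The number of genes called was 0 higher and 0 lower with all libraries, 0 and 3 after rescaling to 1000000, 0 and 2 with the length trend removed, 20 and 46 with that trend removed and GA replicate 1 left out, and 1010 and 450 with library weights estimated from the data, a fit that stopped before its convergence tolerance. Leaving out single libraries gave 0 to 54 higher and 0 to 60 lower, the highest counts without GA replicate 1 (54 and 60). Members called higher numbered 0 with all libraries, 0 to 1 with single libraries left out, 1 without GA replicate 1 and the length trend, and 3 with library weights (*Prdx1*, *Prdx2* and *Txn1*). The median log2 fold change of the members was 0.088 as deposited and 0.035 after rescaling. The causes were not tested.

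Small fold changes changed sign. After rescaling to 1000000 they were -0.025 for *Prdx3*, -0.017 for *Prdx5*, -0.059 for *Prdx6*, -0.048 for *Srxn1*, -0.041 for *Gsr*, -0.045 for *Sesn2*, -0.012 for *Cat*, -0.050 for *Secisbp2*, -0.055 for *P4hb* and -0.013 for *G6pdx*. With the length trend removed they were -0.016 for *Prdx3*, -0.024 for *Prdx5*, -0.063 for *Prdx6*, 0.041 for *Map3k5* and 0.00066 for *Ero1a*. Without GA replicate 1 and the length trend they were -0.023 for *Prdx3*, -0.080 for *Prdx5*, -0.091 for *Prdx6*, -0.0063 for *Srxn1*, 0.019 for *Sesn1*, 0.10 for *Map3k5*, 0.0021 for *Sephs2*, 0.030 for *Ero1a* and 0.022 for *Keap1*. With median-of-ratios scaling they were -0.0082 for *Prdx6*, -0.0023 for *Secisbp2* and -0.0047 for *P4hb*, and with library weights -0.038 for *Prdx6*, -0.013 for *Srxn1*, 0.012 for *Map3k5* and 0.013 for *Gpx4*.

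With single libraries left out, fold changes that changed sign ranged from -0.045 to 0.13 for *Prdx5*, -0.057 to 0.043 for *Prdx6*, -0.0066 to 0.024 for *Srxn1*, -0.015 to 0.080 for *Gsr*, -0.098 to 0.012 for *Sesn1*, -0.0032 to 0.036 for *Sesn2*, -0.085 to 0.068 for *Map3k5*, -0.064 to 0.051 for *Gpx4*, -0.038 to 0.091 for *Secisbp2*, -0.085 to 0.013 for *Sephs2*, -0.090 to 0.0071 for *Ero1a*, -0.021 to 0.048 for *P4hb*, -0.063 to 0.036 for *Nfe2l2* and -0.11 to 0.017 for *Keap1*. The differences in share ranged from -0.0052 to 0.24 percentage points for *Prdx2*, -0.050 to 0.010 for *Prdx4* and -1.62 to 0.036 for *Prdx5*, and the difference in the ratio of *Txnrd2* to *Txn2* from -0.0057 to 0.0050.

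With the replicate number as a block, limma called 0 genes, and the fold change of *Prdx1* stayed at 0.22 (adjusted p = 0.358). The correlations of deviations of same-numbered libraries were -0.17, -0.13 and 0.0039, and those of differently numbered libraries ran from -0.13 to 0.19. With 3 libraries a group, these correlations cannot tell whether same-numbered libraries share an animal or culture. The table holds no counts, so depth sets no interval here, and 3 libraries a group limit the precision.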
